A study of Mus musculus with 2 samples.

Results

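The immediate early genes examined were Fos, Fosb, Fosl1, Fosl2, Jun, Junb, Jund, Atf3, Egr1 and Ier2. Around them, sites bound by Sap130 were read from the list of peaks. Sap130 belongs to the Sin3 corepressor, a complex that carries histone deacetylases. Members were chosen by name, with earlier results of these data known. Their summits were chosen by position: every peak summit of the list inside one of these 10 genes, or within 10000 bp of it, was taken. This gave 26 summits of the 14886 in the list, and the 10 genes were set against 21779 protein-coding genes. The data came from hearts of C57BL/6 embryos at E12.5, with 1 library from chromatin precipitated with 2 µg of a rabbit anti-Sap130 antibody and 1 input library without antibody. The series asked which genes Sap130 targets in the embryonic heart. No allele or treatment was given in the labels for either library, and how many hearts were used was not given in the sources used here. A heart at this stage holds muscle, endocardial, epicardial and blood cells together, and a list of binding sites does not show which of them carried a summit.

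Immediate early genes are transcribed within minutes of a stimulus such as a growth factor, calcium entry or mechanical stretch, without the need for new protein. The Fos and Jun proteins are basic leucine zipper (bZIP) factors that pair to form AP-1, and Atf3 is a bZIP relative that binds similar sites. Egr1 is a zinc finger factor, and Ier2 encodes a small nuclear protein. Serum response factor with its ETS partners, and CREB with its relatives, are the classical activators at such promoters, and corepressors with histone deacetylases are among the regulators that keep the genes quiet between stimuli. In the heart, Fos and Egr1 are known as early responders to stretch and pressure load. Embryos without Jun die in mid-gestation with defects of the outflow tract.

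Every one of the 10 genes had a Sap130 summit in reach, and every one had at least a pair of them, but their scores were ordinary for the list. The score of a summit is the −log10 of a p or q value that the authors' peak caller gave against input. A summit inside the gene or within 10000 bp was found at 10 of 10 members and at 60.1% of all protein-coding genes. A summit within 1000 bp of a gene boundary was found at 10 of 10 members and at 48.4% of all. At least 2 summits in reach, a count added after the data were seen, were found at 10 of 10 members and at 28.6% of all genes. Among the 7447 highest-scoring summits this fell to 2 members, Junb and Fosl1, against 11.3% of all genes. Among the 3728 highest it fell to 1 member, Fosl1, against 3.96%. All of these Junb and Fosl1 summits had another protein-coding gene in reach. At least 1 summit in reach was kept by 9 members among the 7447 highest and by 4 among the 3728 highest (41.9% and 24.3% of all genes). The median of the highest score per gene was 54.4 over the members, against 54.7 over the 13080 genes with a summit in reach. There was 1 library and no replicate, so no test was made between members and other genes, the counts and medians describe this library only, and its depth is unknown. The members, and the related lists described last, were chosen with earlier results of these data known. Their counts thus describe the chosen genes, not immediate early genes as a class.

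The sequences before the annotated start show the DNA ahead of that start, in most cases not the DNA under a summit. They were taken from RefSeq, build GRCm38.p6, which listed a start for 7 members: Fos, Fosb, Fosl2, Jun, Junb, Jund and Atf3. The 250 bases before the start are printed 5′ to 3′ on the gene's own strand for 6 of them. Fos, Fosb, Jun and Atf3 are shown because a summit lay within 1000 bp of the start and a CRE-type motif before it, Junb and Jund because no summit lay there. Fosl2, with a summit 124 bp from its start and none of the motifs marked here, is not printed. Capitals mark the letters TGACG, the core of the cyclic AMP response element (CRE) bound by CREB and ATF factors, the CRE-like TGACNTCA, and the TATA box TATAAA, each on either strand. Fos lies at chr12:85473640-85473889 on the plus strand, Fosb at chr7:19310046-19310295 on the minus strand, Jun at chr4:95052223-95052472 on the minus strand and Atf3 at chr1:191183334-191183583 on the minus strand. Junb lies at chr8:84978749-84978998 on the minus strand and Jund at chr8:70697489-70697738 on the plus strand.
Fos: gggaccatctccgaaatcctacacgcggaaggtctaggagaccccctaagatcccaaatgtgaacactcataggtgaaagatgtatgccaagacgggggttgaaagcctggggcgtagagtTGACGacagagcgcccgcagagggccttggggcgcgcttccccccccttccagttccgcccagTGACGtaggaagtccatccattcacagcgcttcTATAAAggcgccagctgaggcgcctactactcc
Fosb: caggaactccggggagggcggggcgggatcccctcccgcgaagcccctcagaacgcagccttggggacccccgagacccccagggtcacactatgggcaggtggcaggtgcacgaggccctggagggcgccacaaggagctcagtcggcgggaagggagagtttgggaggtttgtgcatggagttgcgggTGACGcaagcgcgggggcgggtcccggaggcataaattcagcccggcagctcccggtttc
Jun: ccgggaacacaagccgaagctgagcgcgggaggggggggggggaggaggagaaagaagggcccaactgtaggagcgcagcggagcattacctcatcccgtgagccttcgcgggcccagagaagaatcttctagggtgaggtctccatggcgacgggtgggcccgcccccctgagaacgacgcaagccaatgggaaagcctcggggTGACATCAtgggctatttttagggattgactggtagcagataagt
Atf3: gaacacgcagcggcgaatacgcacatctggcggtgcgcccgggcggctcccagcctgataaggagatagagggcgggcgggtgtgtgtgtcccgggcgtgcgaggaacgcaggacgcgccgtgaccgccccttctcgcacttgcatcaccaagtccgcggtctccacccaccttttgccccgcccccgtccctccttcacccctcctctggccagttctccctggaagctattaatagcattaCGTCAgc
Junb: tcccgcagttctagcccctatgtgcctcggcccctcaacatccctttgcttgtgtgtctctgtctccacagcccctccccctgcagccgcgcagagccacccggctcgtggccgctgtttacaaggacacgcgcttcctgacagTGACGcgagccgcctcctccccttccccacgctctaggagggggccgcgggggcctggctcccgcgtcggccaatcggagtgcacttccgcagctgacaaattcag
Jund: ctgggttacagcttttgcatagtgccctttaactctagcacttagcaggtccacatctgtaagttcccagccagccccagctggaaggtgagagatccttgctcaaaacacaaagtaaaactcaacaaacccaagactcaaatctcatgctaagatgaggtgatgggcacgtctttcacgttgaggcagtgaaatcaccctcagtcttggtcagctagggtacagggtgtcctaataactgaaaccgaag

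Of these sequences, the one printed for Fosb holds its summit, 140 bases before the listed start. The listed start of Fosb, 19310045, lies inside its gene boundary at 19310118. The 3′ end of the Fosb sequence, with its TGACG, is thus inside the annotated gene, and the summit lies 67 bp outside that boundary. The Atf3 sequence ends at its 5′ side 2 bases short of the gene's lower summit. The Fos and Jun sequences lie between 2 summits each, one before them and one just inside the gene. No summit lay in or within 1000 bp of the Junb and Jund sequences.

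TGACG stood before the start of 4 of the 7 members, Fos, Fosb, Junb and Atf3, and before 20.2% of 21263 listed starts of protein-coding genes. The share was 29.3% where a summit lay within 1000 bp of the start, as in Fos, Fosb and Atf3, and 10.9% where none did, as in Junb. In Fos it began 129 and 66 bases before the start, the nearer one being the known CRE of this promoter, in Fosb 60 bases, and in Junb 106 bases. In Atf3 it stood on the other strand, 7 bases before the start. The full CRE, TGACGTCA, was in none of the 7 windows and in 1.92% of all. TGACNTCA, a search added after the Jun sequence was seen, was in Jun alone among the 7, as TGACATCA at 45 bases before the start, the known site at which Jun with its partners acts on its own promoter, and in 7.25% of all windows. These 3 patterns overlap, since a full CRE also holds the other two.

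The TATA box stood before the start in Fos alone, at 33 bases, and in 11.6% of all windows. The AP-1 site TGANTCA (6.13% of all), the E-box CACGTG (6.63%) and the CArG box of serum response factor (1.39%) were in none of the 7 windows, which says only that they were not in these 250 bases. GGGCGG, the GC box of Sp1, was in Fos, Fosb, Fosl2, Jun and Atf3, 5 of the 7, against 42.6% of all windows. It was in 66.0% of windows with a summit within 1000 bp of the start and in 18.9% of those without. CACGTG (9.16% and 4.06%) and the full CRE (3.03% and 0.796%) were also more frequent with such a summit. The shares ran the other way for TATAAA (4.83% and 18.5%), TGANTCA (3.19% and 9.12%), TGACNTCA (5.69% and 8.84%) and the CArG box (1.02% and 1.76%). The part of CpG content in these splits was not tested. The ETS core GGAA was in all 7, but also in 93.2% of all windows.

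The CpG content separated Jund from the other 6. The 250 bases before the start held 3 CpG dinucleotides in Jund, 15 in Fos, 15 in Jun, 19 in Fosb, 20 in Junb, 23 in Fosl2 and 24 in Atf3. Over all listed starts the median was 18 CpG (quartiles 12 and 25) where a summit lay within 1000 bp and 3 (quartiles 1 and 6) where none did. Jund was thus at the median of starts without a summit, while Junb, which also had none, had as many CpG as starts with one. CpG content and the presence of a summit moved together over all starts, and the part of either in the other was not tested.

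**Figure D1:**
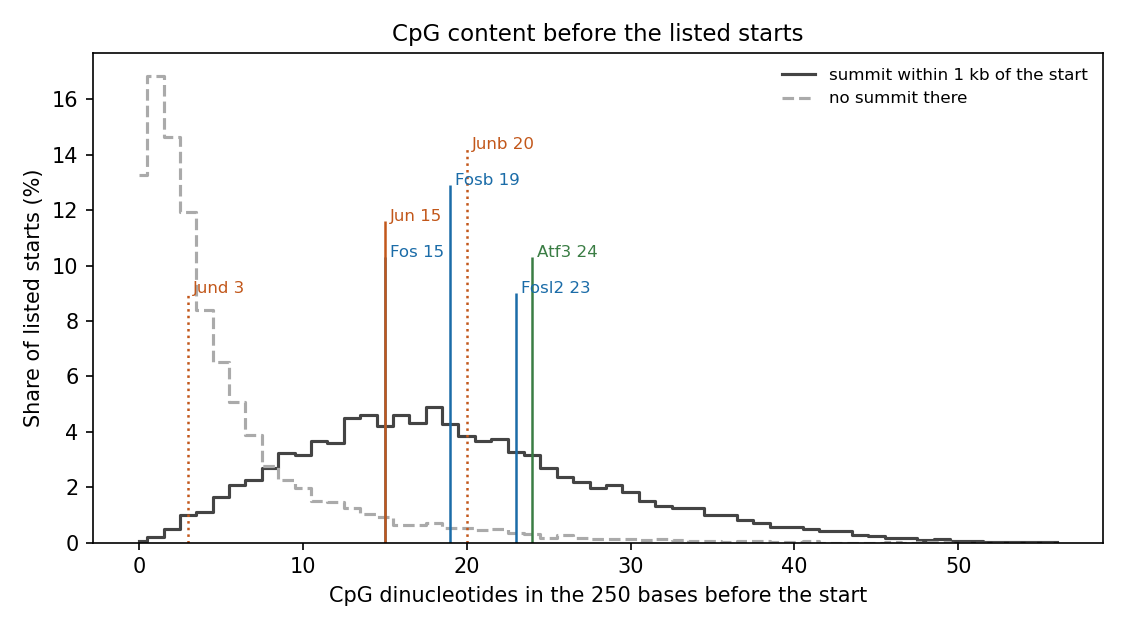
Share of listed starts (vertical, %) by the number of CpG dinucleotides in the 250 bases before them (horizontal), for starts with a summit within 1000 bp (solid) and without (dashed). Lines mark the 7 members, dotted where no summit lay within 1000 bp, and Jund with 3 CpG stands apart from the other 6, which have 15 to 24.

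Where a start was listed, 5 of the 7 members had a summit within 1000 bp of it, and 52.2% of 17492 protein-coding genes with a listed start did. The nearest summit lay downstream of the start in 83.2% of those genes, at a median of 193 bp (quartiles 147 and 249 bp). Among the 5 members it lay downstream in Fos, at 248 bp, Jun, at 230 bp, and Fosl2, at 124 bp. It lay upstream in Fosb, at 140 bp, and in Atf3, at 252 bp, although the higher Atf3 summit was 264 bp downstream. Hence 4 of the 5 members had their highest summit just inside the gene, within 124 to 264 bp of the start, and Fosb had it on the other side.

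**Figure D2:**
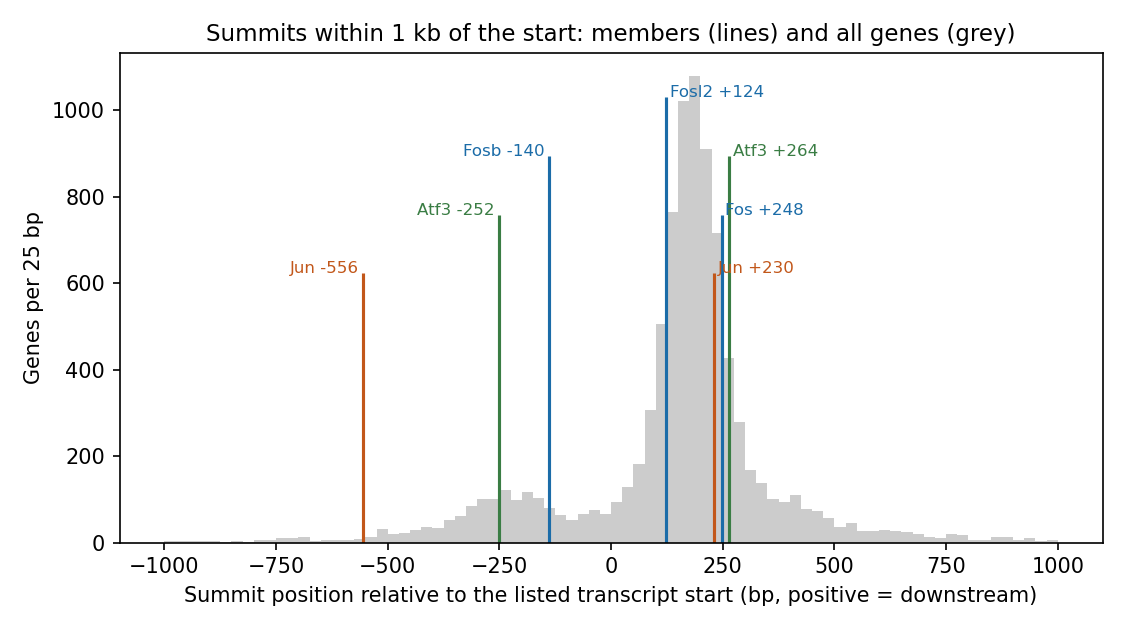
Position of summits relative to the listed transcript start (horizontal, bp, positive downstream) for the members with a start (lines, every summit within 1000 bp) and the nearest summit of all genes (grey, genes per 25 bp). The lines at 124 to 264 bp fall in or beside the grey peak, and those of Fosb and Atf3 upstream fall in the smaller rise before the start. The second Jun line, at -556 bp, lies further upstream than that rise.

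Among the Fos family, Fosb had the highest score of all 10 members. FosB protein pairs with Jun proteins and is known for a long-lived shortened form. The gene (chromosome 7, 19302696 to 19310118) had a summit of score 90.9 at 19310185, 67 bp outside its boundary, above 87.6% of the list. A second summit of 20.6 lay 9889 bp outside, the outermost of the 26. No summit lay inside the gene, and 50.9% of all protein-coding genes had one inside, as did 8 of the 10 members.

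Fos, the founding AP-1 subunit (chromosome 12, 85473890 to 85477274), had 5 summits in reach, the most of the members. Of all genes, 1.21% had 5 or more. Its highest, of 44.7, lay 248 bp inside the start at 85474138. The others had 5.6 at 1188 bp inside, 10.8 at 1508 bp before the start, and 23.7 and 23.2 at 12002 and 12444 bp past the start, beyond the end of the gene. Those of 23.7 and 23.2 lay within 500 bp of each other, so merging at that distance would lower the count of 5. The share of 1.21% was taken without merging. Fos was thus marked by many summits of low or middling score, on both sides and inside, and none had another protein-coding gene in reach.

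Fosl2, encoding Fra-2 (chromosome 5, 32136472 to 32157840), was the longest member and had a simple pattern. A summit of 51.0 lay 124 bp inside the start at 32136596, and a weak one of 6.9 lay 2604 bp before it. Fosl1, encoding Fra-1 (chromosome 19, 5447698 to 5455938), was the reverse. The one summit inside the gene, 109 bp from the left boundary, scored 21.0, with Ccdc85b also in reach, and its highest in reach, 72.0, lay 4753 bp outside and inside Fibp, which encodes a protein that binds fibroblast growth factor 1. Another, of 71.6, lay 1429 bp outside and inside Ccdc85b. With each summit given to its nearest gene only, Fosl1 kept the one of 21.0.

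**Figure D3:**
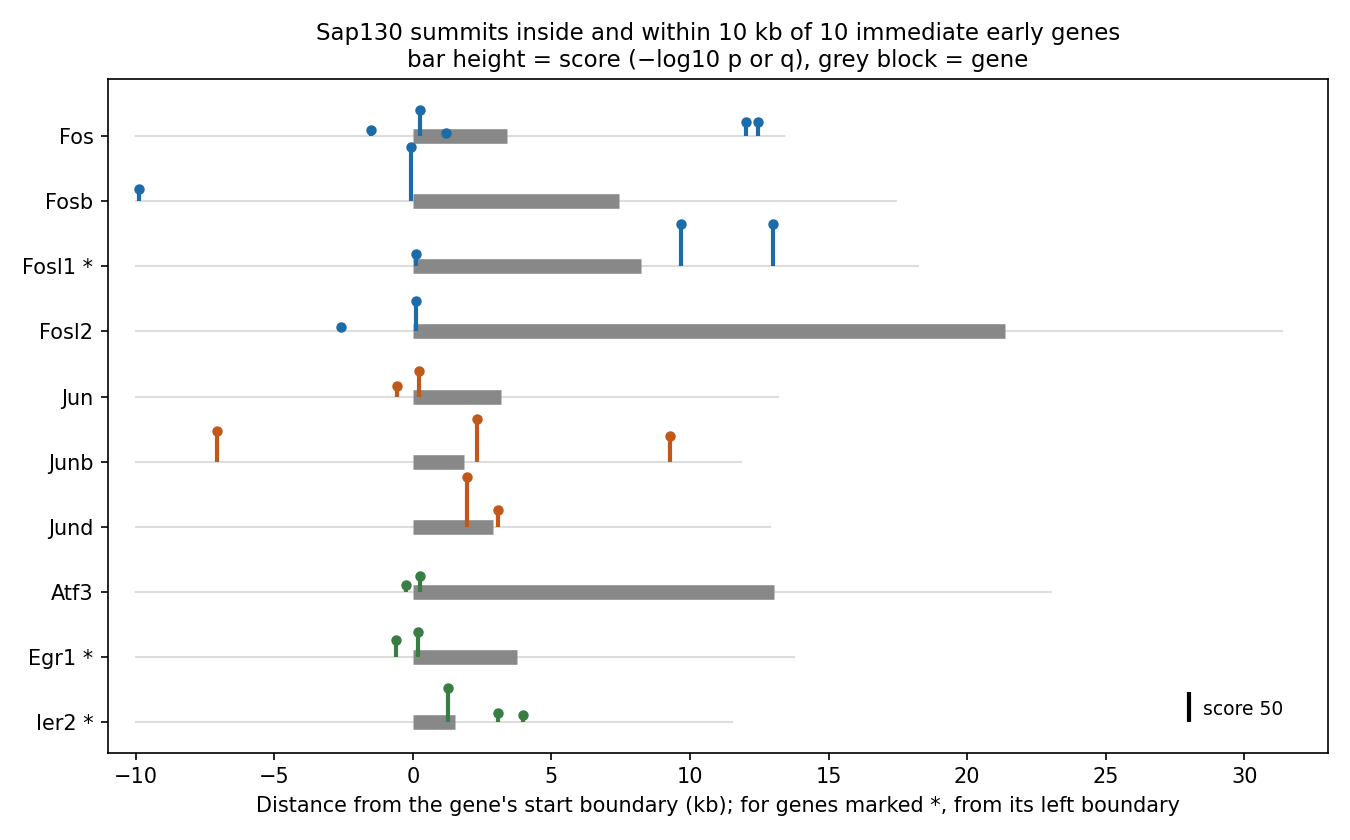
Summits inside and within 10000 bp of the 10 genes, by distance from the gene's start boundary (horizontal, kb, for genes marked * from the left boundary). The height of each bar is the summit's score, against the bar for a score of 50, and the grey blocks are the genes; most genes have their tallest bar at one end, while Fosl1 and Junb also have tall bars far outside.

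The Jun family fell into 2 patterns. Jun, the main partner of Fos (chromosome 4, 95049036 to 95052222), had a summit of 43.9 at 95051992, 230 bp inside the start, and one of 18.0 lying 556 bp before it. The latter lay inside Junos, an antisense long non-coding gene that begins beside Jun, so it cannot be given to Jun alone. No other protein-coding gene was in reach of either.

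Junb and Jund had higher scores but no summit near the listed start. Junb, which can restrain Jun in AP-1 (chromosome 8, 84976909 to 84978748), had no summit inside the gene. Its highest, of 72.3, lay at 84976419, 490 bp past the end of the gene and 2329 bp from the start, with Prdx2, a peroxiredoxin, and Rnaseh2a, a subunit of RNase H2, also in reach. Its other summits were of 51.9, 7078 bp before the start on the side of Hook2, and of 43.9, 7443 bp past the end and inside Rnaseh2a. All 3 had another protein-coding gene in reach.

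Jund, the Jun member present in unstimulated cells (chromosome 8, 70697739 to 70700616), had a summit of 84.1 at 70699690. It lay inside the gene, 1951 bp from the listed start and 926 bp from the end. A second, of 27.9, lay 194 bp past the end, and Iqcn was in reach of both. The Jund start is the one with 3 CpG above, so the highest summit of this gene stood far from a CpG-poor start. Whether another start lies nearer to the summit was not tested.

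Atf3, a stress-induced repressor and activator of the bZIP family (chromosome 1, 191170296 to 191183333), had the lowest highest score of the 10. It had 26.4 at 191183069, 264 bp inside the start, and 10.8 at 252 bp before it. These summits stood 516 bp apart, on the 2 sides of the start. Both were below the list's median of 33.3, which the highest summits of the other 9 members exceeded. Of all protein-coding genes, 41.9% had a summit in reach at or above that median. Fosl1 exceeded it only through summits inside Fibp and Ccdc85b, and the summit that Fosl1 kept as nearest gene scored 21.0.

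Ier2 (chromosome 8, 84661331 to 84662852), the shortest member, had a summit of 57.8 at 84662587, inside the gene and 265 bp from its right boundary. Summits of 15.05 and 12.45 lay 1535 and 2439 bp outside the same boundary. Nacc1, which encodes a BTB domain corepressor, was in reach of all 3.

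Egr1 (chromosome 18, 34861207 to 34864956) had a summit of 42.1 at 34861406, 199 bp inside the left boundary. A second, of 28.1, lay 605 bp outside that boundary. No other protein-coding gene was in reach of either, and the pattern of a higher summit just inside and a lower one just outside the same boundary was that of Jun and Atf3.

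Ordered by the highest score, the members ran Fosb 90.9, Jund 84.1, Junb 72.3, Fosl1 72.0, Ier2 57.8, Fosl2 51.0, Fos 44.7, Jun 43.9, Egr1 42.1 and Atf3 26.4. The 72.0 of Fosl1 came from a summit inside Fibp, and the one inside Fosl1 scored 21.0. Without replicates the error of a score is unknown, and neighbours such as Junb and Fosl1, or Fos, Jun and Egr1, were not told apart. Among genes with a summit in reach, Fosb stood at percentile 77.9 and Atf3 at 24.0. The highest scores of 5 members were above the median of those genes, and Fosb alone was above their upper quartile of 85.6. Of the 26 summits, 12 scored at or above the list's median and 14 scored under 30, among them both of Atf3. In the whole list a score of 28.1 stood at percentile 44.9 and the median was 33.3, so the list had a similar share under 30.

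**Figure D4:**
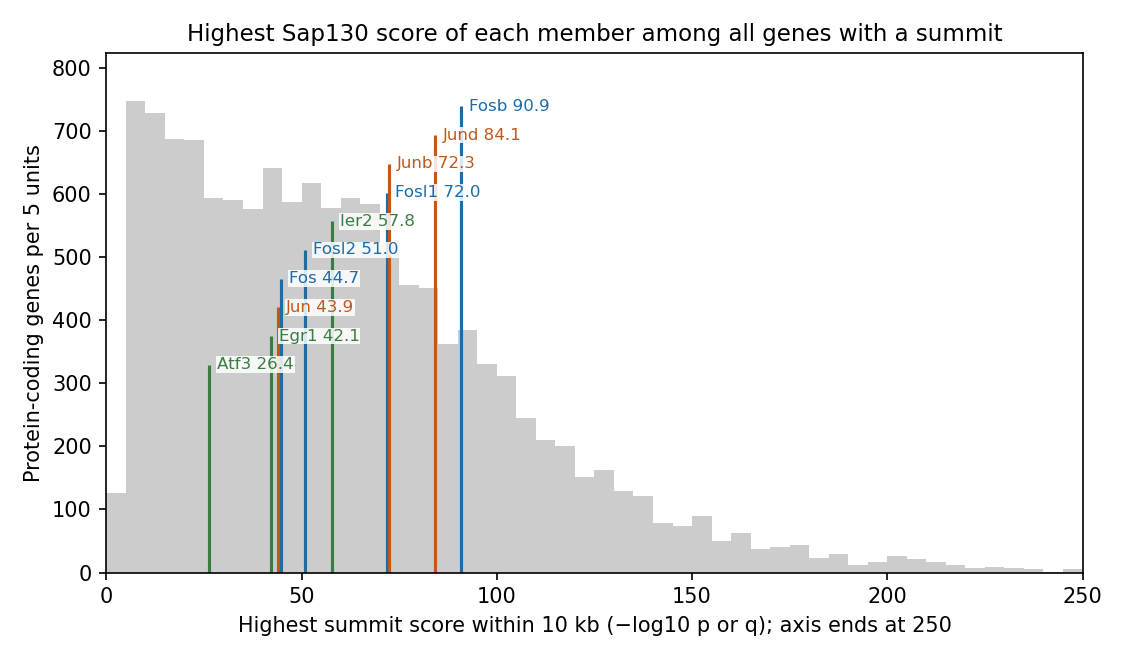
Highest score in reach (horizontal, −log10 p or q, axis ending at 250) of all protein-coding genes with a summit within 10000 bp (grey, genes per 5 units) and of the 10 members (lines, with their values). The members span the bulk of the grey distribution, from Atf3 at 26.4 to Fosb at 90.9.

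Close pairs of summits were frequent among the members, as they were in some related lists. The highest summit had another summit within 2000 bp at 6 of the 10 members, Fos (940 bp), Jun (786 bp), Jund (1120 bp), Atf3 (516 bp), Egr1 (804 bp) and Ier2 (1800 bp). This held for 22.7% of all genes with a summit in reach. Within 1000 bp it held for 4 members and for 17.6% of genes. In the related lists described last, a summit within 2000 bp of the highest stood at 12 of 20 bZIP genes with a summit in reach (60.0%), 7 of 15 promoter-acting factors (46.7%) and 4 of 21 kinases (19.0%). Both distances were set after the positions were seen. At Fosl2, Fosl1, Junb and Fosb the next summit was 2728, 3324, 6953 and 9822 bp away. The members were short, with a median length of 3567.5 bp against 17217 bp for all genes. Among the 12163 genes no longer than the longest member, 25.7% had at least 2 summits in reach.

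**Figure D5:**
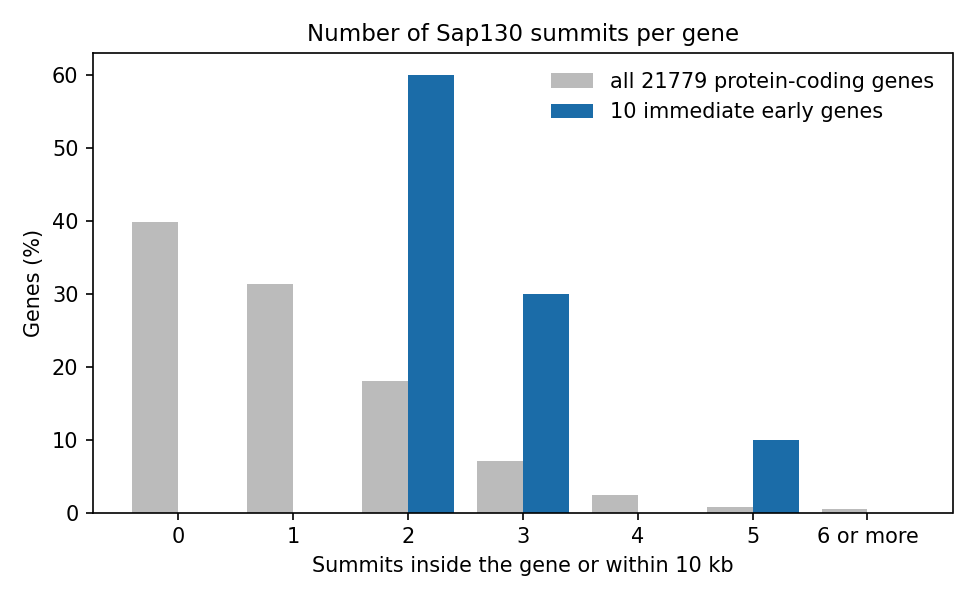
Share of genes (vertical, %) by the number of summits inside the gene or within 10000 bp (horizontal), for all 21779 protein-coding genes (grey) and the 10 members (blue). The members have 2 summits in 6 cases, 3 in 3 cases and 5 at Fos, while 39.9% of all genes have 0 and 31.4% have 1.

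Other immediate early genes were also near summits, with scores like those of all genes. All 40 of a list that held the Nr4a receptors, Dusp phosphatases, Klf factors, Zfp36 proteins, Myc and others had a summit in reach. Of these, 34 (85.0%) had one within 1000 bp of a boundary, and 32 (80.0%) had at least 2. The shares over all protein-coding genes were 60.1%, 48.4% and 28.6%. The median highest score of the 40 was 52.3, near the 54.7 of all genes with a summit. A close summit within 2000 bp stood beside the highest at 19 (47.5%), against 22.7% of all genes with a summit in reach. Sik1, a kinase induced by cyclic AMP, had the highest score, 108.1, followed by Ier5 with 97.6 and Klf10, a zinc finger repressor induced by TGF-beta, with 92.6, each from a single summit.

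Relatives of AP-1 outside the 10 members also mostly had summits, some of them with high scores. Of 22 bZIP genes, 20 had a summit in reach, 15 (68.2%) had at least 2, and the median highest score was 61.1, where all protein-coding genes had 60.1%, 28.6% and 54.7. Atf4, the factor of the integrated stress response, had 176.6 from a summit with Mief1 and Rps19bp1 also in reach. The small Maf genes Mafk and Mafg, whose proteins pair with larger bZIP factors, had 167.1 and 135.4, the latter with Sirt7 and Pycr1 in reach. Batf and Batf2, AP-1 relatives known from immune cells, had none, the nearest lying 87106 and 23400 bp away.

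Genes that act upstream of the members mostly had summits too. Of 24 kinases of the MAP kinase pathways, 21 had a summit in reach, 9 (37.5%) had at least 2, and the median highest score was 62.1. The shares over all protein-coding genes were again 60.1% and 28.6%. These kinase genes had a median length of 57565.5 bp, against 17217 bp for all genes. Mapk14, encoding p38 alpha, had 104.3 and Map2k2, encoding MEK2, had 97.6, both inside the gene, with Slc26a8 and Creb3l3 also in reach. Mapk12 had 126.6 from a summit 7619 bp outside it with Tubgcp6 and Hdac10 in reach. Map2k6, Mapk10 and Mapk13 had none. All 15 factors acting at immediate early promoters had a summit in reach, 9 (60.0%) had at least 2, against 60.1% and 28.6% of all genes, and their median of 74.0 was the highest of these lists. Their median length was 63745 bp, against 17217 bp for all genes. Cdk9, the kinase that releases paused polymerase, had 149.5 from a summit with Fpgs and Sh2d3c in reach, while 136.4 at Crebbp and 127.1 at Ccnt1 came from summits 3689 and 4672 bp outside those genes, near Trap1 and Kansl2. Creb1 stood in 2 of the lists.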

How the data were processed

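Chromatin immunoprecipitation with sequencing was done with 1 Sap130 library and 1 input library. Per the submitters' processing notes, the tools were Bowtie 1.1.2 and MACS2 2.1.0.20140616 and the build was GRCm38 (mm10); settings, threshold and handling of duplicates: not given in the sources used here. Each of the 14886 deposited entries is 1 base long and was taken as a peak summit. Its score, as deposited by the authors, is a −log10 value of either p or q, which the values do not settle. The score grows with depth as well as enrichment, so it ranks summits within this list only. Depth is unknown.

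Genes came from a RefSeq table of GRCm38.p6, less those off the named nuclear chromosomes and those starting below 3000000 bp on a chromosome other than Y (121 protein-coding). A summit was in reach when inside a gene or within 10000 bp. Starts, strands and the 250 bases before them came from the RefSeq promoter table. All symbols of the 4 related lists matched. Named from each list were its 3 highest scores and up to 3 members with no summit. The members and lists were chosen with earlier results of these data known. No test was made, since there is 1 library. The measures were checked on artificial summits at known places. Python 3.11.15, numpy 2.4.6, pandas 2.3.3 and matplotlib 3.10.9 were used.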

Additional observations from a re-analysis of the deposited data

How the results depend on the processing

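Counts and medians were recomputed with a reach of 2500, 5000 and 20000 bp, windows of 500 and 2500 bp at gene boundaries, summits within 500 bp merged, each summit given to its nearest gene, reach from the listed start (7 members), and the 7447 and 3728 summits of highest score. For the members, the stricter scores alone moved a count by over 1.5 times. The count of all genes with at least 2 summits also moved that far with the nearest gene only, from 6239 to 2718, and with a reach of 2500 bp, to 3999. With the 3728 highest, 4 members (Fosb, Fosl1, Junb and Jund) had a summit in reach, against 24.3% of all genes, and 3 had one within 1000 bp of a boundary (17.3% of all). With the 7447 highest, 9 members had a summit in reach, against 41.9% of all genes, and Atf3 had none. The finding of at least 2 summits at each member, an observation added after the data were seen, rested on low scores. Among the 7447 highest, 2 members had them, Junb and Fosl1 (11.3% of all genes), and among the 3728 highest 1 did, Fosl1 (3.96%). With each summit given to its nearest gene only, 8 members had at least 2, against 2718 of the 21779 protein-coding genes. Fosl1 and Junb were the members that no longer had them. The median highest score ran from 47.8 with the nearest gene only to 78.2 among the 3728 highest, where that of all genes ran from 46.1 to 93.9. Just outside the 10000 bp reach lay a summit of 45.3 at 11059 bp from Junb, and just inside it one of 20.6 at 9889 bp from Fosb. No paired analysis was possible because each group has 1 library, and for the same reason no replicate could be left out. Scores repeat between summits, 11128 of which share their value with another, so ties such as 43.9 at Jun and near Junb carry no meaning of their own.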
